A study of Mus musculus with 8 samples.

Results

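*C1ra*, *C4b*, *C3*, *Serping1* and *Cd59a*, 5 of the 12551 genes with counts, were followed in tibialis anterior (TA), a fast muscle of the lower leg, of WT and KL-/- mice. They were chosen by gene symbol, as representatives of the proteases, the central component and the inhibitors of the complement system, and all 5 were in the counts and passed the filter on low values. Complement is a cascade of plasma and tissue proteins that marks microbes, debris and dying cells for removal. In the classical pathway the proteases C1r and C1s are activated on C1q and cut C4 and C2, and the resulting enzyme cuts C3, where the classical, lectin and alternative pathways meet. C3 fragments attach to surfaces and are read by receptors on phagocytes, and the cascade can go on to a membrane pore made of the terminal components. C1 inhibitor (*Serping1*) blocks C1r and C1s, and CD59 (*Cd59a*) sits on the cell membrane and prevents completion of the pore.

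RNA sequencing compared 4 WT with 4 KL-/- males at 7 weeks of age to ask how loss of Klotho changes the muscle transcriptome. The null allele is carried in every tissue, so that a difference in muscle need not originate there, and the mice were bred from heterozygotes on a mixed background. Klotho is a membrane protein and circulating factor of kidney and other tissues, best known for its role in phosphate balance and for the early aging of mice that lack it. Whole frozen muscle was used, so in these bulk samples fewer cells of a type and less RNA per cell cannot be told apart. Reads counted on genes summed to between 20860262 and 26501093 in the WT libraries and to between 22061526 and 29273758 in the KL-/- libraries. The batch date of KL-/- replicate 3 differs from that of the other 7 libraries, and this batch and this mouse cannot be told apart. The myofibre markers, summed, stood at 114221 to 135494 CPM (counts relative to library size, scaled with TMM factors) in WT and 137538 to 188267 CPM in KL-/- muscle, as befits the labelled tissue. The *Kl* transcript was not analysed here, so that genotype was taken from the labels alone.

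None of the 5 genes passed the threshold between genotypes in the main test, edgeR's quasi-likelihood test, and *Serping1* came closest to it. Average levels of *C1ra*, *Serping1* and *C3* were lower in KL-/- muscle by about the same proportion, with log2 fold changes (KL-/- over WT) of −0.75, −0.63 and −0.73, whereas those of *C4b* and *Cd59a* were 0.16 and −0.15. By edgeR's quasi-likelihood test with Benjamini-Hochberg adjustment over all genes (FDR), 0 of 5 members had an FDR under 0.05, where 14.0% of all genes did. At an unadjusted p under 0.05 there were 2 of 5, *C1ra* and *Serping1*, where 32.1% of all genes were. DESeq2 called 2 of 5 lower, the likelihood ratio test called 1, and limma-voom called 0. Of all 12551 genes, DESeq2 called 2456 (1313 of them higher), the likelihood ratio test 2124 (1025 higher) and limma-voom 1775 (904 higher). The members' median log2 fold change was −0.63, against −0.016 over all genes. In 0 of 5 members did every KL-/- sample lie below every WT sample, which held for 9.47% of all genes.

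**Figure D1:**
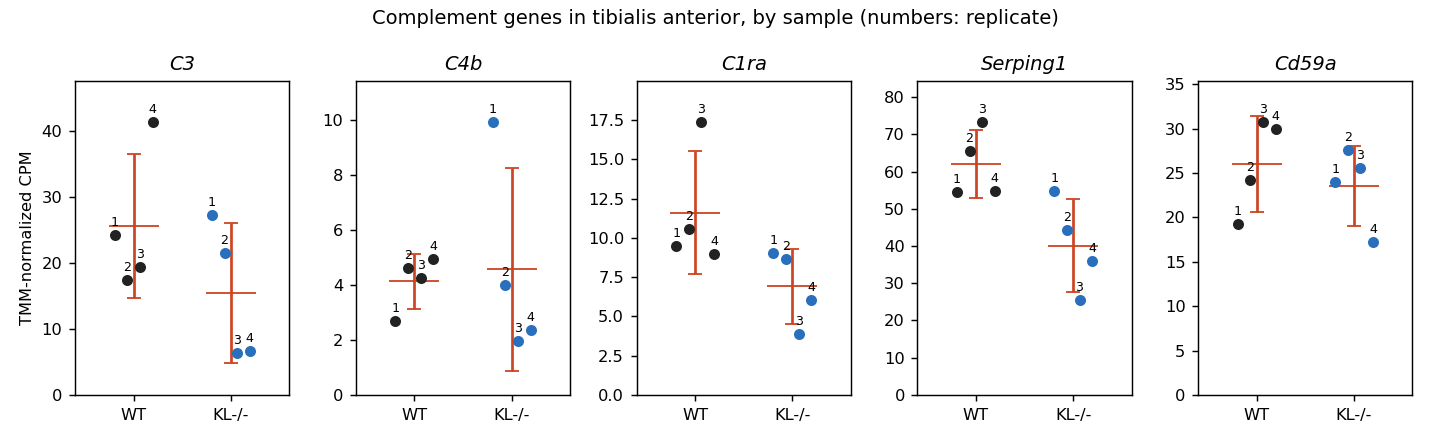
TMM-normalized CPM of the 5 genes in each sample, WT in black and KL-/- in blue, with the replicate number beside each point and the mean and SD of 4 mice in red. In *C3*, *C1ra* and *Serping1* KL-/- replicates 3 and 4 are the lowest of all samples, and in *C4b* KL-/- replicate 1 is the highest.

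*C1ra* encodes C1r, the protease that cuts C1s once C1q has bound. It lies on chromosome 6 (mm10, 124512621 to 124523440, forward strand) with 11 exons. Its level in the WT samples was 9.47, 10.6, 17.4 and 8.97 CPM for replicates 1 to 4, from 229 to 456 counts. In the KL-/- samples it was 9.03, 8.68, 3.90 and 6.03 CPM, from 94 to 259 counts. KL-/- replicates 2 to 4 lay below the lowest WT sample and KL-/- replicate 1 stood level with it, so the genotypes overlapped. Mean levels were 11.6 ± 3.91 CPM for WT and 6.91 ± 2.42 CPM for KL-/- mice (SD, n = 4). This gave a log2 fold change of −0.75 (standard error 0.29, 95% interval −1.39 to −0.11, FDR = 0.107 by edgeR's quasi-likelihood test). Within the first batch, without KL-/- replicate 3, it was −0.55 (FDR = 0.209). WT replicate 3 was the highest sample, and without it the log2 fold change was −0.48 (FDR = 0.269). DESeq2 gave −0.74 with an FDR of 0.0490.

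The counts of *C1ra* carry a limit from its neighbour *C1rb*, a near-identical copy on the same strand (chromosome 6, 124570294 to 124581171) that is not among the counted genes. Of all distinct stretches of 50 bases in *C1ra* transcripts, 48.0% were also found in *C1rb*, and of stretches of 100 bases 34.5%. Reads from such stretches cannot be placed on 1 of the copies, and how the counting treated them is not given in the sources used here.

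*C4b* encodes C4, the substrate that activated C1s cuts first and that binds covalently to the surface under attack. It lies on chromosome 17 (34728381 to 34743897, reverse strand) with 40 exons. The WT samples stood at 2.69, 4.63, 4.27 and 4.95 CPM, from 66 to 138 counts. The KL-/- samples stood at 9.94, 4.01, 1.95 and 2.37 CPM, from 47 to 285 counts. KL-/- replicate 1 was far above all WT samples, replicate 2 was within their range, and replicates 3 and 4 were below all of them. Mean levels were 4.13 ± 0.999 and 4.57 ± 3.69 CPM (SD, n = 4), so KL-/- mice were spread more widely than WT mice around nearly the same mean. On the log2 scale the SD was 0.39 among WT and 1.03 among KL-/- mice, a difference in spread that was not tested. The log2 fold change of 0.16 had a standard error of 0.47 (95% interval −0.88 to 1.21, FDR = 0.835 from edgeR's quasi-likelihood test). Without KL-/- replicate 1 it turned to −0.58 (FDR = 0.217), and within the first batch it was 0.41 (FDR = 0.588).

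*C4b* also has a near-identical copy, *C4a* (chromosome 17, 34809092 to 34823464), that is not among the counted genes. The copy held 34.6% of the 50-base stretches and 15.2% of the 100-base stretches of *C4b*. *C3* and *Serping1* shared 0% of either with another gene.

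*C3* encodes the protein on which the pathways converge, and lies on chromosome 17 (57203967 to 57228136, reverse strand) with 42 exons. Its WT levels were 24.2, 17.4, 19.4 and 41.4 CPM, from 376 to 1154 counts. Its KL-/- levels were 27.2, 21.5, 6.38 and 6.67 CPM, from 154 to 781 counts. KL-/- replicates 1 and 2 lay within the WT range, and replicates 3 and 4 lay well below it, with no sample in between. Mean levels were 25.6 ± 10.9 CPM for WT and 15.4 ± 10.6 CPM for KL-/- mice (SD, n = 4). This gave a log2 fold change of −0.73 (standard error 0.48, 95% interval −1.80 to 0.33, FDR = 0.313 by edgeR's quasi-likelihood test), smaller than the SD of the log2 levels among KL-/- mice, 1.09. It was −0.40 without WT replicate 4, −1.16 without KL-/- replicate 1 and −0.48 within the first batch.

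*Serping1* encodes C1 inhibitor, a serpin that removes C1r and C1s from the C1 complex and also inhibits contact system proteases. It lies on chromosome 2 (84765360 to 84775429, reverse strand) with 8 exons. In WT muscle it stood at 54.6, 65.6, 73.4 and 54.8 CPM, from 1338 to 1924 counts. In KL-/- muscle it stood at 54.9, 44.2, 25.5 and 35.9 CPM, from 616 to 1573 counts. KL-/- replicate 1 matched the lower WT samples, and the other KL-/- samples lay below all WT samples. Mean levels were 62.1 ± 9.11 and 40.1 ± 12.4 CPM (SD, n = 4). This gave a log2 fold change of −0.63 (standard error 0.21, 95% interval −1.09 to −0.17). The FDR was 0.0691 by edgeR's quasi-likelihood test, 0.0249 by edgeR's likelihood ratio test and 0.0178 by DESeq2. When library totals replaced the TMM factors, the log2 fold change was −0.74 (FDR = 0.0378), but that scaling moved the median of all genes to −0.13. Without KL-/- replicate 1 it was −0.81 (FDR = 0.0322), and within the first batch −0.46 (FDR = 0.110).

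*Cd59a* encodes the widely expressed mouse CD59, a lipid-anchored surface protein that binds the forming pore, and lies on chromosome 2 (104095801 to 104115410, forward strand) with 5 exons. Its WT levels were 19.3, 24.2, 30.8 and 30.0 CPM. Its KL-/- levels were 24.0, 27.6, 25.6 and 17.2 CPM, and the genotypes overlapped almost throughout, with KL-/- replicate 4 alone below the lowest WT sample. Mean levels were 26.1 ± 5.40 and 23.6 ± 4.49 CPM (SD, n = 4), a difference smaller than either SD. The log2 fold change was −0.15 (standard error 0.18, 95% interval −0.54 to 0.25, FDR = 0.597 by edgeR's quasi-likelihood test), the narrowest interval of the members, and within the first batch it was −0.19. *Cd59a* was the member whose spread was alike in both genotypes, with SDs on the log2 scale of 0.31 (WT) and 0.30 (KL-/-).

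*Cd59b*, a copy of *Cd59a* beside it on the same strand (chromosome 2, 104071010 to 104084957), encodes a second CD59 best known from testis. Its level fell in KL-/- muscle while that of *Cd59a* did not pass the test, and the coding sequences are shown to compare the copies. Counted lengths were 1867 bases for *Cd59a* and 796 for *Cd59b*, so reads could also come from outside the coding part. The coding sequences of *Cd59a* (372 bases) and *Cd59b* (390 bases) in GENCODE transcripts on mm10 were identical at 304 of 357 aligned bases, or 85.2%. The first 300 bases of each are given 5′ to 3′, with bases that differ or are missing in the other copy in capitals.

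Cd59a: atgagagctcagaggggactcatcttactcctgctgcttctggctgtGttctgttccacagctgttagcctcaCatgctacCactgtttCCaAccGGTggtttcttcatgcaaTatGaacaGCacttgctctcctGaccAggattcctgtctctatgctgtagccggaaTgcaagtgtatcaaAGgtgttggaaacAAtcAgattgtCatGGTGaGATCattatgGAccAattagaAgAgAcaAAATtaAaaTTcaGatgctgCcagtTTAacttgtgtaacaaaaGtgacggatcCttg

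Cd59b: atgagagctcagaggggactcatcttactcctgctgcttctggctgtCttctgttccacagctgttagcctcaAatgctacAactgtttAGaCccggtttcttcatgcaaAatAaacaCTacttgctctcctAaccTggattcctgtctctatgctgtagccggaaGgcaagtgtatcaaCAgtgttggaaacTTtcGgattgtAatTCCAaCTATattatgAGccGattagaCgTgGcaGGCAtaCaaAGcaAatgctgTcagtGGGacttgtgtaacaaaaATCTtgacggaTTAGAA

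The longest run of identical coding bases was 47. Over whole transcripts, 3.87% of 50-base and 0.276% of 100-base stretches of *Cd59a* occurred in *Cd59b*, so the overlap was small beside that of *C1ra* and *C4b* with their copies. *Cd59b* stood at 4.33, 3.42, 3.16 and 3.66 CPM in WT and 1.46, 2.29, 1.57 and 1.43 CPM in KL-/- muscle, without overlap. The counts behind these levels were 74 to 106 in WT and 38 to 48 in KL-/- libraries. It fell by 1.12 on the log2 scale (standard error 0.19, FDR = 0.00738 by edgeR's quasi-likelihood test) and passed whichever of the 8 samples was left out. For *Cd59b*, 20.1% of 50-base stretches were found in other genes, the largest share, 8.74%, in *Efr3a*.

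The ratio of *Cd59a* to *Cd59b* counts within a sample needs no scaling between libraries. It was 4.45, 7.07, 9.72 and 8.21 in WT and 16.4, 12.0, 16.2 and 12.0 in KL-/- muscle. All KL-/- values exceeded all WT values, and the mean log2 ratio differed by 0.98. An exact two-sided permutation test (70 relabelings of the mice) gave p = 0.0286, the smallest that 4 against 4 allows, and 0.0857 after Benjamini-Hochberg adjustment over 3 ratios. The 3 ratios were chosen after values had been seen. Unless another ratio also reached 0.0286, the adjusted value could not fall below 0.0857. That this difference did not pass after the adjustment therefore decides nothing.

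The other ratios set *C1ra* beside its substrate and its inhibitor. *C1ra* over *C1s1* was 0.287 to 0.366 in WT and 0.220 to 0.367 in KL-/- muscle, a difference of −0.17 in mean log2 ratio (two-sided exact permutation test, p = 0.457). *C1ra* over *Serping1* was 0.161 to 0.237 in WT and 0.153 to 0.196 in KL-/- muscle, a difference of −0.098 (two-sided exact permutation test, p = 0.600). Both were 0.600 after adjustment over the 3 ratios. The protease, its partner and its inhibitor thus kept overlapping proportions, although a p that misses the threshold does not show that the ratios were equal.

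**Figure D2:**
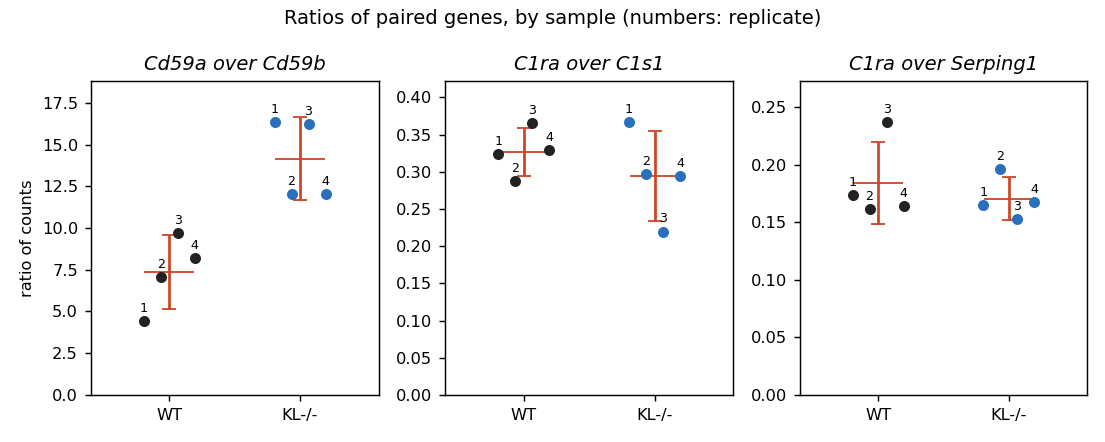
Ratios of counts within each sample for *Cd59a* over *Cd59b*, *C1ra* over *C1s1* and *C1ra* over *Serping1*, WT in black and KL-/- in blue, with the replicate number and, in red, the mean and SD of 4 mice. The *Cd59a* to *Cd59b* ratio is 4.45 to 9.72 in WT and 12.0 to 16.4 in KL-/- samples, and the other ratios overlap.

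Levels of different genes can be set side by side only per length. As CPM per kilobase of counted gene length (RPKM, TMM-normalized), *Serping1* was the most abundant member, at 34.1 ± 5.0 in WT and 22.1 ± 6.84 in KL-/- muscle, above 85.4% of the counted genes. *Cd59a* followed at 14.0 ± 2.89 and 12.6 ± 2.40 RPKM (SD, n = 4), above 72.7% of genes. *C3*, at 4.98 ± 2.12 and 3.00 ± 2.05 RPKM, and *C1ra*, at 4.20 ± 1.42 and 2.50 ± 0.875 RPKM, were neighbours whose levels overlapped in both genotypes. *C4b* was the lowest at 0.767 ± 0.185 and 0.847 ± 0.684 RPKM, above 13.9% of genes. Per length, both inhibitors thus stood above *C3*, *C1ra* and *C4b* in whole TA muscle.

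The samples differed in the same order for several members. As a percentage of the WT mean, KL-/- replicates 1 to 4 stood at 106, 83.8, 24.9 and 26.1 for *C3*. For *Serping1* they stood at 88.3, 71.2, 41.1 and 57.9, and for *C1ra* at 77.8, 74.8, 33.6 and 52.0. KL-/- replicates 3 and 4 were thus the lowest in all of these genes, and also in *C4b*, at 47.1 and 57.4 against 240 and 96.9 in replicates 1 and 2. *Cd59a* did not share the order, at 91.9, 106, 98.1 and 66.1. The pair of members closest in pattern over the 8 samples was *C1ra* and *Serping1*, with a root mean square difference of 0.19 between their log2 CPM after each was centred on its mean. The pair farthest apart was *C3* and *Cd59a*, at 0.80.

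Markers of fibroblasts and fibro-adipogenic progenitors, cells known to make complement components, were also lower in KL-/- muscle. All 10 markers had a negative log2 fold change and 4 fell with an FDR under 0.05, where 6.67% of all genes did. These 4 were *Dcn* (decorin, −0.94, FDR = 0.0305), *Dpt* (−1.21, FDR = 0.0283), *Gsn* (−0.88, FDR = 0.0340) and *Lum* (−1.32, FDR = 0.0460). The summed level of all 10 markers was 1114 to 1755 CPM in WT and 523 to 1060 CPM in KL-/- muscle, without overlap. Relative to the WT mean of that sum, KL-/- replicates 1 to 4 stood at 75.1%, 59.3%, 37.1% and 43.8%. This order of KL-/- samples was also seen in *C3*, *Serping1*, *C1ra* and *C4b*. Among WT samples the sum was lowest in replicate 4 (78.9%) and highest in replicate 3 (124%). In these 2 samples *C1ra* stood at 77.3% and 150% of its WT mean, and *Serping1* at 88.2% and 118%. *C3*, at 162% and 75.9%, and *C4b*, at 120% and 103%, went the other way. The part of these cells in the levels of *C1ra*, *Serping1* and *C3* was not tested.

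**Figure D3:**
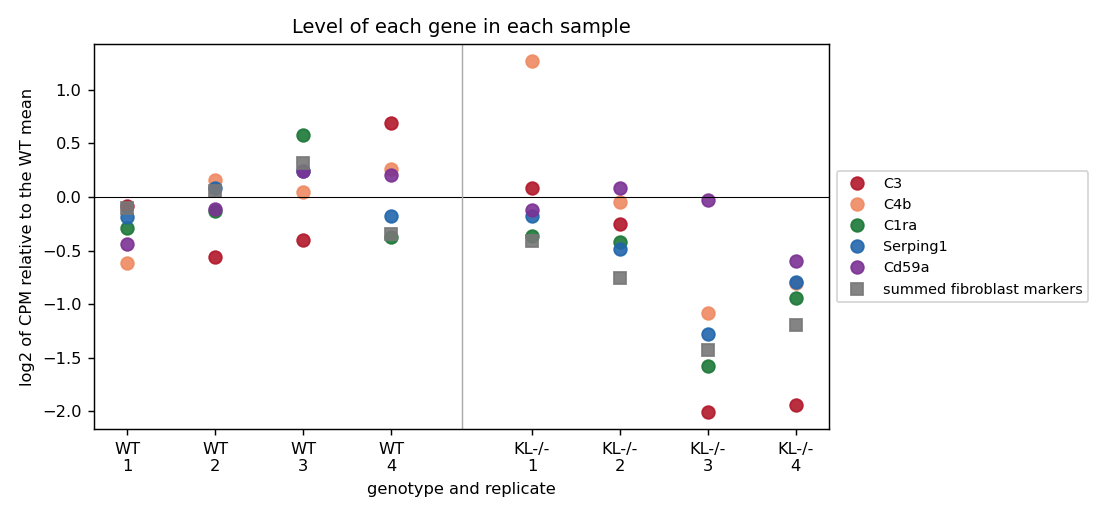
Level of each gene in each sample as log2 of CPM relative to the WT mean, with the summed fibroblast markers as grey squares. In KL-/- replicates 3 and 4 *C3*, *C4b*, *C1ra*, *Serping1* and the fibroblast markers lie below 0, whereas *C4b* in KL-/- replicate 1 lies at 1.27.

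Markers of other cell types moved in both directions, and of all genes 6.67% fell and 7.35% rose with an FDR under 0.05. Of 9 macrophage markers counted, 7 had a negative and 2 a positive log2 fold change, and 1 fell, *Adgre1* (−1.52, FDR = 0.0364). The most abundant, *Lyz2*, had a log2 fold change of −0.70 (FDR = 0.0767), and the sum was 55.0 to 109 CPM in WT and 45.1 to 70.4 CPM in KL-/- muscle. Of 8 endothelial markers *Kdr* fell (−0.90, FDR = 0.00781), *Cdh5*, the most abundant, had −0.35 (FDR = 0.0787), and the sums were 480 to 729 and 433 to 488 CPM. None of 8 pericyte and smooth muscle markers passed edgeR's test, 0 at an unadjusted p under 0.05, with *Abcc9* the most abundant (−0.034, FDR = 0.811) and sums of 701 to 950 and 786 to 879 CPM. Of 6 Schwann cell markers 3 rose, among them *Mbp* (0.62, FDR = 0.0251) and *Sox10* (0.95, FDR = 0.0125), and the sums were 52.7 to 93.8 and 97.9 to 119 CPM. Of 8 myofibre markers *Actn3* rose (0.67, FDR = 0.0103), and *Myh4* was the most abundant (0.46, FDR = 0.155).

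Liver, the main source of plasma complement, and fat, a source of *Cfd*, were checked by their own markers. Of 7 hepatocyte markers 3 were counted and 0 passed edgeR's test, 0 at an unadjusted p under 0.05. Their sum was 18.9 to 24.2 CPM in WT and 21.0, 147, 4.56 and 5.43 CPM in KL-/- replicates 1 to 4, with the high value in replicate 2 mostly from *Alb* (107 CPM there). Among KL-/- mice *Cd59a* was highest in that sample, and the other members were not. Of 6 adipocyte markers 4 were counted, and *Fabp4*, which endothelial cells also express, rose (0.27, FDR = 0.030). The sums were 179 to 200 CPM in WT and 207 to 253 CPM in KL-/- muscle, almost all of it *Fabp4*. *Adipoq*, the defining adipocyte gene, stood at 1.22, 0.601, 1.07 and 3.23 CPM in WT and 9.90, 5.15, 0.746 and 1.32 CPM in KL-/- muscle, highest in the sample in which *C4b* was highest. The part of these cells in the level of *C4b* was not tested.

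The remaining genes of the complement system were read from a list of 53, of which 26 were counted. In KL-/- muscle 6 of 26 fell with an FDR under 0.05, where 6.67% of all genes did, and 1 of 26 rose, where 7.35% did. The median log2 fold change of the list was −0.68, against −0.016 over all genes, 21 values were negative and 5 positive, and 17 of 26 had an unadjusted p under 0.05. DESeq2 called 14 lower, and of all 12551 genes it called 2456, of which 1313 were higher. Leaving out 1 sample from edgeR's test gave 2 to 8 lower.

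**Figure D4:**
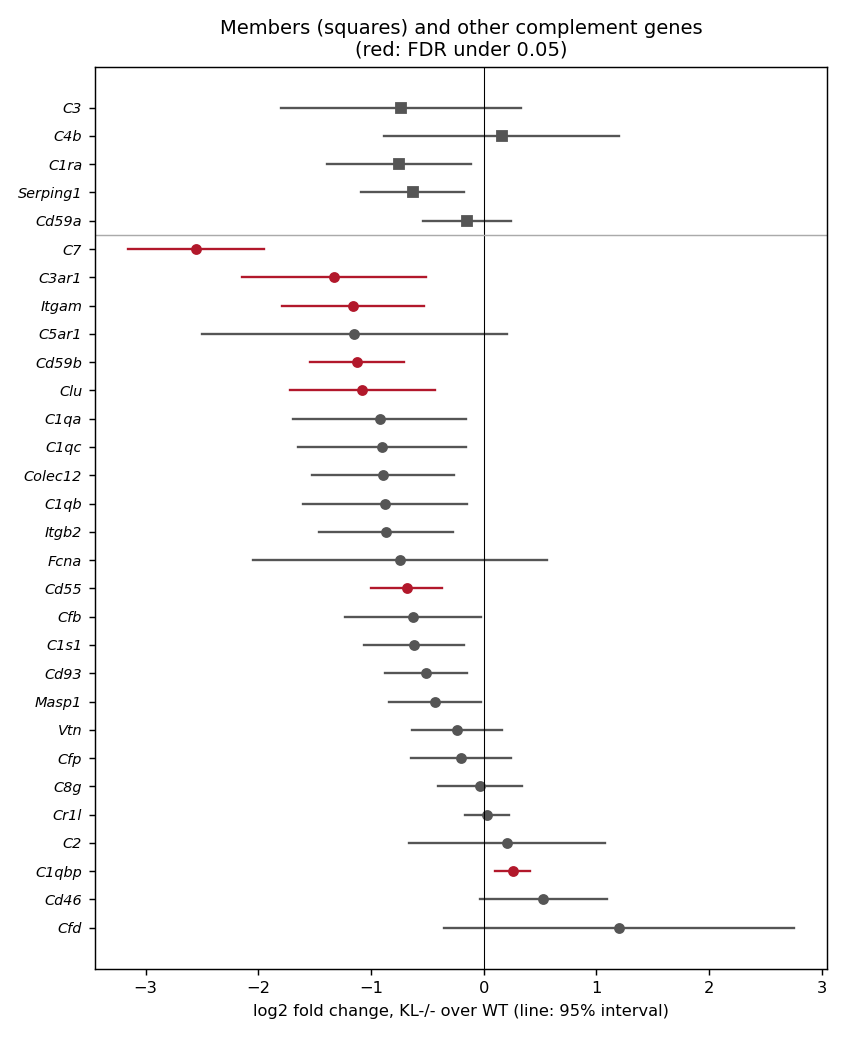
Log2 fold changes (KL-/- over WT, 8 samples) of the 5 members as squares and of other complement genes as circles, with 95% intervals as lines and an FDR under 0.05 in red. *C7* lies lowest at −2.55, and the members lie between −0.75 and 0.16 in grey.

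Among the partners of *C1ra* and *C4b* in the classical pathway, 0 of 5 passed edgeR's quasi-likelihood test and 4 had an unadjusted p under 0.05, while DESeq2 called these 4. *C1qa*, *C1qb* and *C1qc*, which encode the chains of the recognition molecule C1q, had log2 fold changes of −0.92, −0.88 and −0.90 (FDR = 0.0999, 0.0980 and 0.0987). *C1s1*, the protease activated by C1r, stood at 27.3 to 47.5 CPM in WT and 17.7 to 29.2 CPM in KL-/- muscle (−0.61, FDR = 0.0669). *C2*, the other substrate of C1s, had 0.21 (FDR = 0.746). All of these overlapped between genotypes. In the lectin pathway the protease *Masp1* had −0.43 (FDR = 0.138) and the ficolin gene *Fcna* −0.74 (FDR = 0.407). The collectin gene *Colec12*, listed with them but not shown here to act in that pathway, had −0.89 (FDR = 0.0635). By edgeR's test 0 of these 3 passed, 2 had an unadjusted p under 0.05, and DESeq2 called *Colec12*.

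The alternative pathway amplifies C3 cleavage. Its genes are factor B (*Cfb*), factor D (*Cfd*) and properdin (*Cfp*), and 0 of 3 passed edgeR's test or DESeq2, with *Cfb* at an unadjusted p under 0.05. *Cfb* had a log2 fold change of −0.63 (FDR = 0.144) and *Cfp* of −0.20 (FDR = 0.516). *Cfd*, also called adipsin, stood at 5.67, 5.27, 6.44 and 18.6 CPM in WT and 47.5, 22.5, 3.73 and 9.54 CPM in KL-/- muscle. Like *Adipoq* it was highest in WT replicate 4 within WT and in KL-/- replicate 1 within KL-/-, and the log2 fold change reached 1.20 (standard error 0.69, FDR = 0.258).

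Of the terminal components, *C7* showed the lowest log2 fold change of all complement genes counted. The protein anchors the forming pore to the membrane. Its counts were 120, 134, 114 and 212 in WT and 35, 28, 19 and 16 in KL-/- libraries, and its level 4.90, 6.20, 4.35 and 7.60 against 1.22, 1.34, 0.787 and 0.603 CPM. The highest KL-/- sample was far below the lowest WT sample. *C7* fell by 2.55 on the log2 scale (standard error 0.27, FDR = 0.00226 by edgeR's quasi-likelihood test). Within the first batch the value was −2.46, and *C7* passed whichever of the 8 samples was left out. *C8g*, the other terminal component counted, had −0.033 (FDR = 0.909).

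Other regulators of complement, in fluid or on the membrane, differed among themselves. *Cd55*, a membrane protein that breaks up the enzymes that cut C3, fell from 52.1 ± 2.60 to 32.6 ± 7.86 CPM (SD, n = 4) without overlap (−0.68, FDR = 0.0157), and an antisense gene shares 102 exonic bases with it. It passed with any of 7 samples left out, and without KL-/- replicate 4 the FDR was 0.0504. *Clu*, clusterin, which binds the fluid-phase pore, fell from 59.6 ± 9.50 to 28.3 ± 13.9 CPM (−1.08, FDR = 0.0375), but with single samples left out it passed in 1 of 8 fits, that without KL-/- replicate 2 (FDR = 0.00267). *Vtn*, vitronectin, had −0.24 (FDR = 0.384). *Cd46* had 0.53 (FDR = 0.180). *Cr1l*, the rodent membrane regulator Crry, had 0.033 (FDR = 0.823), at 24.8 to 31.0 CPM in WT and 27.4 to 32.3 CPM in KL-/- muscle. Its direction flipped to −0.086 with library totals.

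Receptors for C3 fragments and other products were mostly lower in mean level. *C3ar1*, the receptor for C3a, fell from 1.52 ± 0.600 to 0.602 ± 0.205 CPM (SD, n = 4; −1.33, FDR = 0.0401), and *Itgam*, a chain of complement receptor 3, fell from 2.05 ± 0.540 to 0.921 ± 0.290 CPM (−1.16, FDR = 0.0277). With single samples left out, *C3ar1* passed in 2 of 8 fits, without WT replicate 4 or KL-/- replicate 2, and *Itgam* in 3 of 8, without WT replicate 1 or KL-/- replicate 1 or 2. Neither passed within the first batch (FDR = 0.103 and 0.0765). *Itgam* shares 3450 exonic bases with another gene on its strand, so its counts are uncertain. *Itgb2*, its partner chain, had −0.87 (FDR = 0.0581), *C5ar1* −1.15 (FDR = 0.219) and *Cd93* −0.51 (FDR = 0.0663). *C1qbp*, a protein first isolated by binding C1q that resides mainly in mitochondria, rose from 68.6 ± 4.54 to 82.0 ± 5.29 CPM (0.26, FDR = 0.0377). With library totals its log2 fold change was 0.14 (FDR = 0.145), and with single samples left out it passed in 3 of 8 fits, without WT replicate 1 or KL-/- replicate 1 or 2.

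Transcription of complement genes is known to respond to interferons and to interleukin 6 and related cytokines through C/EBP factors. Of 26 such receptors, kinases and transcription factors, all counted, 1 fell and 4 rose, where 6.67% of all genes fell and 7.35% rose. Their median log2 fold change was −0.041, and 6 of 26 had an unadjusted p under 0.05, where 32.1% of all genes did. *Cebpd* stood at 8.53, 10.1, 6.79 and 5.41 CPM in WT and 17.3, 21.0, 64.9 and 55.5 CPM in KL-/- muscle (2.37, standard error 0.43, FDR = 0.0103). It was highest in KL-/- replicates 3 and 4, the samples in which *C3*, *C1ra*, *Serping1* and *C4b* were lowest. A part of *Cebpd* in the levels of these genes was not tested. *Cebpb* rose from 30.7 ± 6.33 to 60.6 ± 16.1 CPM (0.98, FDR = 0.0127), and *Nfkbia*, which encodes the inhibitor of NF-kB, from 18.7 ± 1.79 to 35.9 ± 12.8 CPM (0.94, FDR = 0.0254). *Il6ra* rose from 3.30 ± 0.876 to 8.46 ± 4.86 CPM with overlap (1.36, FDR = 0.0487). *Il6st*, the shared receptor chain and the most abundant of the list, had 0.13 (FDR = 0.178). Within the first batch *Cebpd* and *Cebpb* passed, with 2.03 and 0.78, and *Nfkbia* and *Il6ra* did not (FDR = 0.0545 and 0.113). With single samples left out *Nfkbia* passed in 2 of 8 fits, without KL-/- replicate 1 or 2, and *Il6ra* in 1 of 8, without KL-/- replicate 2.

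The promoters of the members are given where they hold letters of the sites that such factors bind. RefSeq promoters on GRCm38.p6, from 250 bases before to 50 bases after the start, matched 3 of the 5 members, *C3*, *C1ra* and *Cd59a*. Both strands were searched for TTGCNNAA, a form of the C/EBP site, and TTCNNNGAA, a form of the interferon-activated site GAS. The windows of *C3* (chr17:57228087-57228386, reverse strand) and *C1ra* (chr6:124512371-124512670, forward strand) held matches, shown in capitals, and that of *Cd59a* held none.

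C3: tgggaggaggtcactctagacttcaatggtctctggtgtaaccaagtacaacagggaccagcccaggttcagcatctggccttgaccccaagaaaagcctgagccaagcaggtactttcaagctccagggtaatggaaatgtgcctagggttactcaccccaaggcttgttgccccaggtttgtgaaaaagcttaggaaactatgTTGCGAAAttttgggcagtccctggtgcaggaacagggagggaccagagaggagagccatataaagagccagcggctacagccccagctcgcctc

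C1ra: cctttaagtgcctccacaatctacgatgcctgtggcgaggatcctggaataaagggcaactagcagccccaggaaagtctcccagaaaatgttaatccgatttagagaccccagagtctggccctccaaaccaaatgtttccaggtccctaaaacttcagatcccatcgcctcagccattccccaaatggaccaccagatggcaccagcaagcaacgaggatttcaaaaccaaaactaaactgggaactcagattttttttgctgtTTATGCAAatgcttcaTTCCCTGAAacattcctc

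The *C3* match, TTGCGAAA, starts at position 206 of 300. *C1ra* held a C/EBP match on the other strand, printed as TTATGCAA, at position 267 and a GAS match, TTCCCTGAA, at position 283, and these do not overlap. Of 32851 promoters of the same length, 10.8% held the C/EBP letters and 8.30% the GAS letters, so matches are frequent and describe the sequence alone.

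The genes whose pattern over the 8 samples was most like each member were found by the same root mean square measure among 10973 genes whose log2 CPM averaged 1 or more. *Serping1* was closest to *Lasp1* (0.083), *Lmnb2* (0.11) and *Loxl3* (0.12), where the median over those genes was 0.48. *C1ra* was closest to *Tnxb* (0.098), *Abca9* (0.10) and *Fam46a* (0.14), with a median of 0.60. *Cd59a* was closest to *B3galnt1* (0.12), *Lepr* (0.12) and *Arhgap39* (0.13), with a median of 0.33. For *C3* and *C4b* no gene came as near. *C3* was closest to *Camk1d* (0.44), *Lrrn4cl* (0.44) and *Myoc* (0.47), with a median of 0.90, and *C4b* to *Cebpa* (0.31), *Lrrc32* (0.31) and *Irs1* (0.32), with a median of 0.70. *Cebpa* stood at 4.65, 6.20, 5.87 and 5.49 CPM in WT and 7.92, 5.77, 2.90 and 3.28 CPM in KL-/- muscle, high and low in the same KL-/- samples as *C4b*, and its log2 fold change was −0.15 (FDR = 0.746). A part of *Cebpa* in the level of *C4b* was not tested.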

How the data were processed

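Per the methods and labels, STAR was used for alignment (mm10) and featureCounts for counting. The authors deposited raw counts per gene, beside a gene length used here for levels per kilobase. The annotation, the strand setting and the read length are not given in the sources used here. Libraries were made from 100 ng of RNA. The labels name separate samples of each genotype, each with its own number, without saying that each is another mouse. Each was taken as a separate mouse here. The p-values set the genotype difference against the spread between these samples only.

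Counts were tested in R 4.3.3 with edgeR 4.0.16. Its filter kept all 12551 genes, TMM factors were 1.02 to 1.05 in WT and 0.950 to 0.980 in KL-/- libraries, and the quasi-likelihood test had genotype as the only term. Standard errors were taken from the test statistic. Log2 CPM used a prior count of 2. Alternatives were RLE factors, library totals, DESeq2 1.42.0, limma-voom (limma 3.58.1), the likelihood ratio and edgeR 3 quasi-likelihood tests, at least 10 counts in every sample, no filter, a replicate block and each sample left out, 17 in all. The edgeR 3 test and the ratio tests were added after seeing the data. Tests were checked on simulated counts. No libraries of a genotype were duplicates (lowest chi-square per gene 9.92, where sampling noise gives about 1). No floor was applied to low counts, such as the 2 counts of *Fcna* in KL-/- replicate 3, which are uncertain from counting error alone.

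Transcript stretches, exons and overlaps are from GENCODE on mm10. Named genes are the 5 members, their counted copies and complement genes, genes of the other lists that passed or had the highest level, and the 3 genes most like each member. Some list members are not reported here on their own, though counts and sums include them. Members and lists were chosen with earlier results of these data known.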

Additional observations from a re-analysis of the deposited data

Results flagged for a closer look

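Within each genotype, 78 groups of 4 values were examined for a sample far from the others, and 4 were found, where about 1 in 20 groups, or 3.9, would be by chance. *Cfd* stood at 18.6 CPM in WT replicate 4 and between 5.27 and 6.44 CPM in the other WT samples. *Cd59b* stood at 2.29 CPM in KL-/- replicate 2 and between 1.43 and 1.57 CPM in the other KL-/- samples, still below every WT sample. *C5ar1* stood at 2.63 CPM in WT replicate 3 and between 0.645 and 0.833 CPM in the others. The hepatocyte markers summed to 147 CPM in KL-/- replicate 2 and to between 4.56 and 21.0 CPM in the others. None of the 5 members had such a sample.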

How the results depend on the processing

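*C3*, *C1ra*, *Serping1* and *Cd59a* kept a negative log2 fold change under all 17 alternatives. The alternative without a filter could not differ from the main fit, as the filter had kept all 12551 genes. With each sample left out in turn, the log2 fold change ranged from −1.16 to −0.40 for *C3*, −0.58 to 0.41 for *C4b*, −0.90 to −0.48 for *C1ra*, −0.81 to −0.46 for *Serping1* and −0.27 to −0.022 for *Cd59a*. *C4b* reversed to −0.092 with limma-voom, to −0.068 with the replicate block and to −0.58 without KL-/- replicate 1. *C1ra* passed with DESeq2 (−0.74). *Serping1* passed with library totals (−0.74), DESeq2 (−0.62), the likelihood ratio test (−0.63) and without KL-/- replicate 1. The number of members lower was 1 with library totals, 2 with DESeq2, 1 with the likelihood ratio test and 0 to 1 with a sample left out. Of the complement list, 6 lower became 11 with library totals, 14 with DESeq2, 11 with the likelihood ratio test, 3 with the replicate block and 2 to 8 with a sample left out, and 1 higher became 0 with library totals, 0 with the replicate block and 0 to 1. Of the regulators, 1 lower became 4 with library totals and 0 to 2 with a sample left out, and 4 higher became 2 with the replicate block and 2 to 4. Small values also changed direction, *Cr1l* to −0.086 with library totals and −0.028 to 0.077 with a sample left out, *C2* from −0.14 to 0.44 and *C8g* from −0.11 to 0.034. The cause of these changes was not tested.

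Over all genes, 1759 calls became 671 with the replicate block and 2456 with DESeq2, and leaving out a sample gave 762 (without KL-/- replicate 3) to 2755 (without KL-/- replicate 2). The share of higher genes was 52.4%, and 18.8% of 2619 with library totals. Same-numbered samples had correlations of −0.15, 0.18, −0.37 and 0.017, so the numbers were not taken to pair the mice. With the block *Serping1* had an FDR of 0.112 and *C1ra* of 0.194. *Fcna*, *C3ar1* and *C5ar1* gave no value with at least 10 counts in every sample. The standard errors were largest for *C3* (0.48) and *C4b* (0.47). With 4 mice per genotype their intervals, −1.80 to 0.33 and −0.88 to 1.21, spanned both directions. Even the log2 fold change of −0.73 in *C3* did not pass (FDR = 0.313 by edgeR's quasi-likelihood test). The smallest difference that could have been detected was not calculated.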
